A study of Mus musculus with 18 samples.

Results

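The W131A effect was set side by side in peripheral and thymic CD4 T cells, and the quantity described here is the difference between those 2 effects, so that a gene stands out only where W131A changed it unequally in the 2 places. The comparison used 12 of the 18 libraries of the series, 3 from each of 4 groups: peripheral W131AOTII, peripheral OTII, thymic W131AOTII and thymic OTII. All mice were on the C57BL/6 background and expressed the OT-II transgene, whose receptor recognises an ovalbumin peptide on MHC class II. W131AOTII mice additionally carried the W131A substitution in ZAP-70. Peripheral cells were sorted from spleen and lymph nodes as naive CD4 T cells by low CD44 and present CD62L, and thymic cells as CD4 single-positive thymocytes, both gated as Va2-positive and negative for CD25. The labels name 3 OTII mice, and 12 W131AOTII mice with 4 mice per group, and do not say which mice gave which library or whether both tissues came from the same animals, so the p-values reflect only library-to-library spread, which may be technical. Ages are not given.

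ZAP-70 is the tyrosine kinase that binds the phosphorylated T cell receptor complex and passes its signal on, and the tryptophan replaced in W131A lies in the contacts that hold the kinase in its autoinhibited shape. In the thymus, receptor signals on self peptide decide which CD4 single-positive cells survive, and their strength is recorded in genes such as Nr4a1 and Cd5. In the periphery, naive cells keep receiving weak self signals, and chronic signals without costimulation lead to anergy, a state of poor responsiveness marked by CD73 and folate receptor 4. Cells leave the thymus after maturation under KLF2, which controls the egress receptor S1PR1 and the homing receptor CD62L.

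The 12 libraries held 20001233 to 36218772 counts each. Cd4 was measured at 1186 to 1678 CPM in all of them (CPM, a gene's counts scaled to a common library size after TMM normalisation). Ccr9, a receptor of thymocytes, was at 749 to 1248 CPM in thymic and 57.6 to 137 CPM in peripheral libraries. Rag1 was at most 0.193 CPM in the periphery. Across the 500 most variable genes, the first component held 76.9% of the variance and separated the tissues. Peripheral W131AOTII replicate 2 lay farthest out on the second component (9.84% of the variance) and carried the most B cell transcript, with a summed level of 22 B cell markers of 7142 CPM against 2681 and 2690 CPM in the other peripheral W131AOTII libraries, 2602 to 2965 CPM in peripheral OTII, 686 to 1058 CPM in thymic W131AOTII and 746 to 1052 CPM in thymic OTII libraries. None of the 22 was at 0 in all 12 libraries. Thymic W131AOTII replicate 1 had the highest summed level of heat shock genes, 5583 CPM. In bulk RNA, a change in the share of a cell type and a change in RNA per cell cannot be told apart.

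W131A acted differently on 58 of the 15204 genes tested, which is 0.381% of them (edgeR quasi-likelihood F test on the difference of effects, Benjamini-Hochberg adjusted p at most 0.05; 1448 genes had an unadjusted p under 0.05). The effect was more positive in the periphery for 45 genes (0.296% of those tested) and more positive in the thymus for 13 (0.0855%). Of the 45, 22 rose in the periphery without a called change in the thymus, 14 fell in the thymus without a called change in the periphery, and 7 did both. Of the 13, 12 rose in the thymus without a called change in the periphery. No called gene fell in the periphery. The median difference over all genes was -0.01 on the log2 scale.

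The single effects give the setting of these 58 genes. W131A changed 293 genes in the periphery (255 higher, 1.68% of those tested, and 38 lower, 0.25%) and 421 in the thymus (263 higher, 1.73%, and 158 lower, 1.04%). The 91 genes called in both made up 31.1% of the peripheral and 21.6% of the thymic calls. Of these, 84 changed in the same direction and 7 in opposite directions. Across all genes, which are not independent replicates, the 2 effects had a Spearman correlation of 0.17 and a Pearson correlation of 0.30. The plot of both effects shows the 45 genes above the diagonal, most of them in the quadrant of higher in the periphery and lower in the thymus. The gap in mean level between the tissues was narrower in W131AOTII than in OTII cells for 31 of the 58 genes, against 50.2% of all genes.

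**Figure D1:**
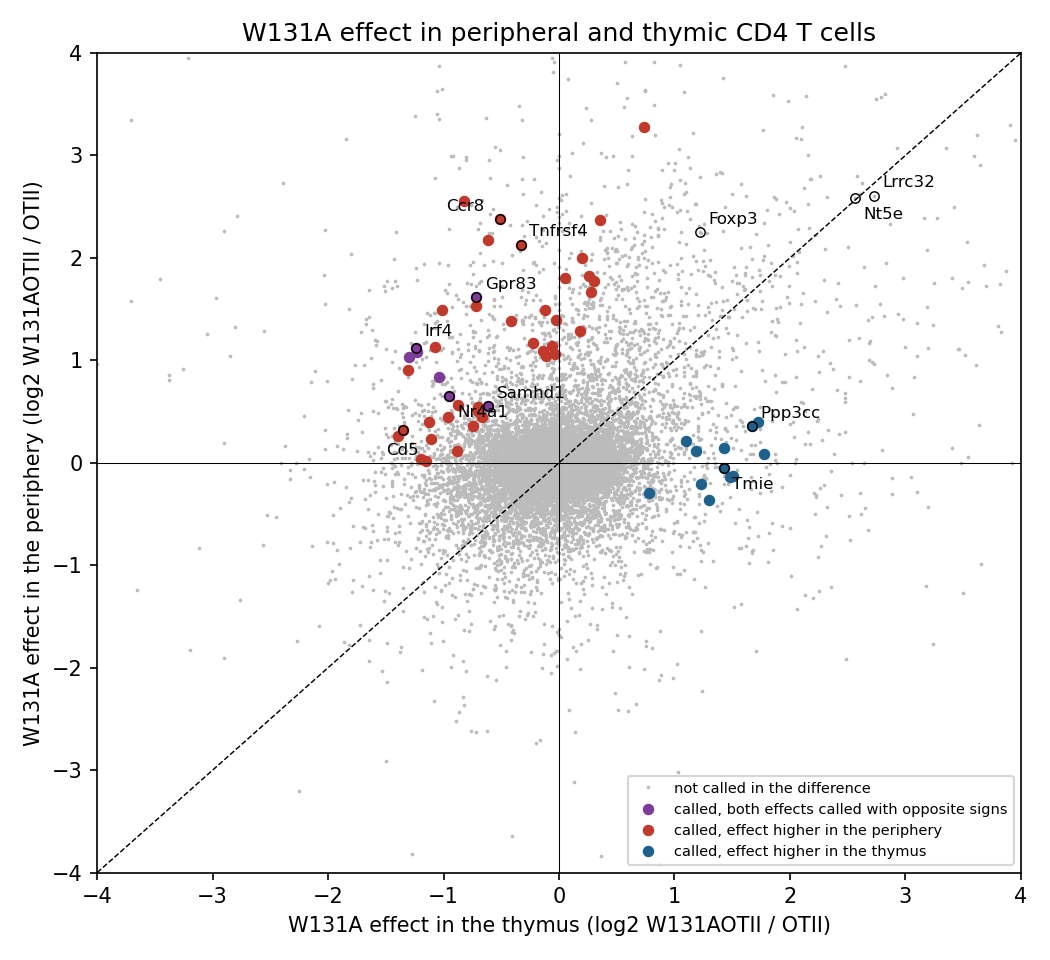
W131A effect in the periphery (vertical axis) against that in the thymus (horizontal axis), both as log2 of W131AOTII over OTII, for the 15204 genes tested, with the 58 genes called in the difference coloured and 87 genes outside the plotted range of 4 left out. Gpr83, Irf4, Nr4a1 and Samhd1 lie in the upper left quadrant, Ppp3cc and Tmie to the right near the horizontal axis, and Nt5e and Lrrc32 close to the dashed line of equal effects.

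Counts depended on single libraries. The 58 calls became 23, 33, 32, 32, 37 and 35 without peripheral OTII replicate 3, peripheral OTII replicate 2, peripheral W131AOTII replicate 1, peripheral W131AOTII replicate 2, thymic OTII replicate 1 and thymic W131AOTII replicate 3, one library being left out at a time. Without thymic W131AOTII replicate 1 there were 90 higher and 41 lower calls, 56 of the 58 among them. All 58 kept the sign of their difference in each of the 12 fits that left out 1 library, and 23 of the 58 kept their call in all 12.

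The response was reversed, with opposite called effects, in 7 genes (0.046% of the genes tested). They were Gpr83, Irf4, Nr4a1, Nacc2, Samhd1, Ms4a4c and the antisense gene Gm13546, and all 7 were raised by W131A in the periphery and lowered by it in the thymus.

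Gpr83 (ENSMUSG00000031932, chr9:14860210-14870789, GRCm38) encodes a G protein-coupled receptor that is abundant on regulatory T cells. It was measured at 51.9, 60.8 and 57.5 CPM in peripheral W131AOTII against 17.2, 19.2 and 19.1 CPM in peripheral OTII libraries. In the thymus it was at 36.8, 28.6 and 34.5 CPM in W131AOTII against 56.2, 52.3 and 55.5 CPM in OTII libraries. The groups did not overlap in either tissue, and W131AOTII was the high group in the periphery and the low one in the thymus. The log2 effect was 1.62 (SE 0.13) in the periphery and -0.71 (SE 0.13) in the thymus, a difference of 2.33 (SE 0.18, adjusted p = 1.1e-06), the smallest p of all genes.

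Irf4 (ENSMUSG00000021356, chr13:30749226-30766976) encodes a transcription factor induced in proportion to receptor signal strength. Its level was 18.7, 22.7 and 14.4 CPM in peripheral W131AOTII against 8.84, 5.88 and 11 CPM in peripheral OTII libraries. Thymic libraries held more of it, with 28.9, 25.2 and 31.4 CPM in W131AOTII and 60.0, 64.4 and 77.7 CPM in OTII cells. Every thymic library was above every peripheral one, and the W131A difference ran in opposite directions without overlap. The difference of effects was 2.36 (SE 0.31, adjusted p = 0.00087), from 1.12 in the periphery and -1.24 in the thymus.

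Nr4a1 (ENSMUSG00000023034, chr15:101254269-101274795), whose product Nur77 is the standard reporter of receptor signalling, was at 69.3, 69.0 and 49.9 CPM in peripheral W131AOTII against 40.5, 38.9 and 40.2 CPM in peripheral OTII libraries. In the thymus it was at 147, 95.4 and 130.0 CPM in W131AOTII against 250.2, 225 and 248 CPM in OTII libraries. The 2 pairs of groups did not overlap and stood in opposite order. The log2 effect was 0.65 (SE 0.15) in the periphery and -0.96 (SE 0.15) in the thymus, and the difference was 1.61 (SE 0.22, adjusted p = 0.00087).

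Nacc2, which encodes a transcriptional repressor with a BTB domain (chr2:26055535-26123220), was at 18.4, 19.4 and 23.2 CPM in peripheral W131AOTII against 9.04, 11.3 and 13.9 CPM in peripheral OTII libraries. Thymic W131AOTII libraries held 3.36, 3.04 and 2.67 CPM against 6.94, 5.76 and 6.02 CPM in thymic OTII libraries. Here the periphery was the high tissue, and again neither pair of groups overlapped. The difference of effects was 1.87 (SE 0.24, adjusted p = 0.00087).

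Samhd1, a dNTP hydrolase that restricts retroviruses and is induced by interferon (chr2:157097533-157135265), was at 534, 481 and 487 CPM in peripheral W131AOTII against 327, 348 and 349 CPM in peripheral OTII libraries. In thymic libraries it was at 126, 132 and 133 CPM in W131AOTII against 219.9, 173 and 204 CPM in OTII cells. The difference was 1.17 (SE 0.16, adjusted p = 0.00087), with 0.55 in the periphery and -0.61 in the thymus. Ms4a4c, a four-span membrane protein gene of mature T cells, was at 65.8, 54.3 and 46.7 CPM in peripheral W131AOTII against 30.3, 26.3 and 22.4 CPM in peripheral OTII libraries. Its thymic levels were 5.48, 9.48 and 8.38 CPM in W131AOTII against 25.4, 11.1 and 18.6 CPM in OTII libraries. For both genes the groups separated in both tissues, in opposite order. The Ms4a4c difference was 2.31 (SE 0.38, adjusted p = 0.0059). Gm13546 had a difference of 2.34 (SE 0.36, adjusted p = 0.0028), but it overlaps Cytip, and without a stated strand setting its reads cannot be told apart from those of that gene. Nacc2 overlaps Gm13554 and Ms4a4c overlaps Gm5692, so part of their reads may belong to those.

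The difference of effects of these 7 genes kept its call without any 1 library, but the opposite calls of their single effects did not always hold. The number of reversed genes was 2, 1 and 3 without peripheral OTII replicates 1, 2 and 3, 4 without peripheral W131AOTII replicate 1 and also 4 without replicate 2, and 12 without thymic W131AOTII replicate 1. Gpr83 was reversed in all 12 fits. The peripheral effect of Nr4a1 had an adjusted p of 0.083, 0.12 and 0.10 without peripheral OTII replicates 1, 2 and 3, and of 0.11 and 0.13 without peripheral W131AOTII replicates 1 and 2. That of Irf4 had an adjusted p of 0.053 without peripheral OTII replicate 2 and stayed under the threshold in the other 11 fits.

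**Figure D2:**
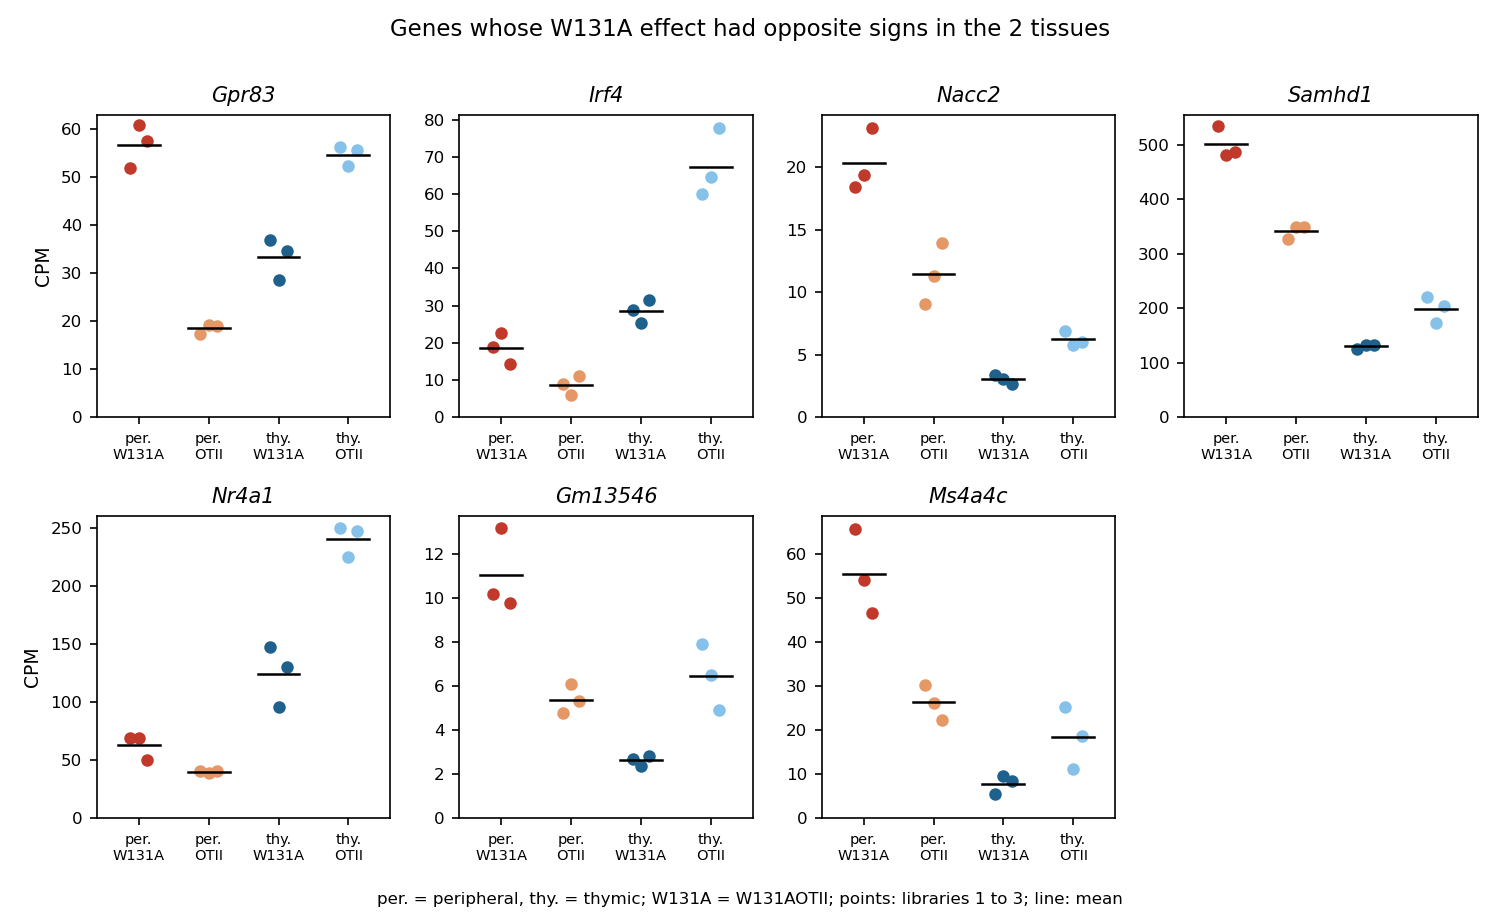
Level in CPM of the 7 genes with opposite W131A effects, one panel per gene, with a point per library (3 per group) and a line at the group mean, in the order peripheral W131AOTII, peripheral OTII, thymic W131AOTII, thymic OTII. In every panel the peripheral W131AOTII mean is above peripheral OTII and the thymic W131AOTII mean is below thymic OTII, as for Gpr83 at 51.9 to 60.8 against 17.2 to 19.2 CPM and 28.6 to 36.8 against 52.3 to 56.2 CPM.

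Both strands of the 250 bases before each RefSeq start (GRCm38.p6) were searched for the letters of several factor families in these 7 genes. Among them were the letters GCGNGGGCG, which are bound by EGR factors. Nr4a1 and Nacc2 were the 2 of the 7 that held them, each as CGCCCCCGC, the reverse strand of the pattern, in capitals below. They lie 60 to 52 bases before the start of Nr4a1 (chr15:101266596-101266845, plus strand, a start inside the longer Ensembl gene) and 17 to 9 bases before that of Nacc2 (chr2:26122812-26123061, minus strand). Irf4 (chr13:30748983-30749232, plus strand) held no match in this window. A gene was counted if any of its RefSeq starts matched, and the window shown is that of the start with the most matches.
Nr4a1: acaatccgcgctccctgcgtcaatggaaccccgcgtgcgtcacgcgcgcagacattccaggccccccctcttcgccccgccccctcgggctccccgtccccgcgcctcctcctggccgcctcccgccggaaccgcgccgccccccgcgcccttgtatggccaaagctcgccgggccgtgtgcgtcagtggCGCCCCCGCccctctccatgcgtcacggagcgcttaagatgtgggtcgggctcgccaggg
Nacc2: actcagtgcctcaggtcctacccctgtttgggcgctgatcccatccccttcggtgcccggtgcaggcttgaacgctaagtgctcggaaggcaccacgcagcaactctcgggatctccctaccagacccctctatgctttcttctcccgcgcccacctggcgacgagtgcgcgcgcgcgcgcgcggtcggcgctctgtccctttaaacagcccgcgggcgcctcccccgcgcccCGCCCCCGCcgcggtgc
Irf4: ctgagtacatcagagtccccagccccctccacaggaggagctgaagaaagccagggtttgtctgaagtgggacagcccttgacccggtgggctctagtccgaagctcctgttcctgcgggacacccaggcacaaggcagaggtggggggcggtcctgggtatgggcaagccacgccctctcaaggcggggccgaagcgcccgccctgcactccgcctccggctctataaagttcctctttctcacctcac
The EGR letters were in 9.93% of the 10263 tested genes with a RefSeq promoter. They were in 4 of the 35 such genes with a more positive peripheral effect and in 2 of the 9 with a more positive thymic effect. Gpr83, like Irf4, held no EGR match. Of the 7 reversed genes, 0 held the letters searched for AP-1, the interferon element or NF-kB. NFAT letters were in 1 of the 7, against 21.2% of tested genes, and KLF letters in 1, against 12.6%. Whether any of these letters act here was not tested.

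Of 25 genes that report receptor activity 6 were called, against 0.296% of all genes called higher, all with the more positive effect in the periphery: Nr4a1, Irf4, Tnfrsf4, Cd5, Cd6 and Egr2. This list and the later gene lists were chosen with earlier results of these data known. Their counts are therefore descriptions and not independent support. The median difference of the 25 was 1.0 on the log2 scale against -0.01 over all genes, 22 of the 25 were positive against 7458 of 15204 genes, and 14 of the 25 had estimates above 0 in the periphery and below 0 in the thymus against 3396 of all genes. Markers of other cells shifted by as much or more in the same contrast, with a median of 1.18 over 22 B cell markers (19 positive) and of 1.62 over 15 NK and innate-like markers (15 positive), and their part in the result was not tested. The summed B cell level of peripheral W131AOTII exceeded the peripheral OTII libraries (2602 to 2965 CPM) in replicate 2 only (7142 CPM). Other marker sums were higher in every peripheral W131AOTII library than in any peripheral OTII library. These were the NK and innate-like (188 to 449 against 90.8 to 105 CPM), CD8 (568 to 602 against 327 to 393 CPM) and myeloid sums (275 to 382 against 209 to 235 CPM). The number of reporters called was 4 without peripheral OTII replicate 3 and 5 to 8 without any other single library.

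Cd5 (ENSMUSG00000024669, chr19:10717116-10739002), an inhibitory coreceptor whose level follows the strength of self recognition, was at 276, 321 and 208 CPM in peripheral W131AOTII against 202, 216 and 228 CPM in peripheral OTII libraries. In the thymus it was at 247, 159 and 169 CPM in W131AOTII against 467, 491 and 511 CPM in OTII libraries. The groups overlapped in the periphery, while every thymic W131AOTII library was below every thymic OTII library. The effect was -1.35 (SE 0.16) in the thymus and 0.32 (SE 0.16, adjusted p = 0.60) in the periphery, a difference of 1.67 (SE 0.23, adjusted p = 0.00096). Cd6, the related coreceptor, named after its values were seen, had a thymic effect of -0.89, a peripheral effect of 0.12 and a difference of 1.0 (SE 0.18, adjusted p = 0.017), which ended without peripheral OTII replicate 3 (adjusted p = 0.051).

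Egr2, a zinc finger factor induced by calcium signalling and linked to anergy, was at 32.0, 33.8 and 24.4 CPM in peripheral W131AOTII against 24.0, 23.4 and 18.6 CPM in peripheral OTII libraries. In the thymus it was at 84.6, 79.8 and 99.1 CPM in W131AOTII against 149.5, 117 and 150.4 CPM in OTII libraries, a fall of the same kind as that of Nr4a1. The difference was 1.11 (SE 0.22, adjusted p = 0.025). That call ended without peripheral OTII replicate 3, peripheral W131AOTII replicate 1 or 2, thymic OTII replicate 1 or 3 or thymic W131AOTII replicate 2, with an adjusted p of up to 0.078. Egr1 fell in the thymus (-0.62) and had an estimate of -0.09 in the periphery, and its difference of 0.53 (95% interval 0.05 to 1.01, adjusted p = 0.49) did not pass.

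Tnfrsf4, which encodes the costimulatory receptor OX40, was at 64.8, 74.1 and 57.5 CPM in peripheral W131AOTII against 16.1, 15.7 and 13.0 CPM in peripheral OTII libraries. In the thymus it was at 45.3, 35.8 and 23.3 CPM in W131AOTII against 45.2, 38.5 and 47.4 CPM in OTII libraries. The peripheral groups were far apart and the thymic ones overlapped. The difference was 2.46 (SE 0.32, adjusted p = 0.00087), from 2.13 in the periphery and -0.33 in the thymus. Tnfrsf25, the receptor DR3, reached a difference of 1.52 (SE 0.31, adjusted p = 0.040) the other way round, through a fall of 1.12 on the log2 scale in the thymus beside 0.39 in the periphery. Its call ended without peripheral OTII replicate 2 or 3, peripheral W131AOTII replicate 1 or 2, thymic OTII replicate 1 or 3 or thymic W131AOTII replicate 3, with an adjusted p of up to 0.085. Of the 18 members of the costimulatory TNF receptor family list, these 2 were the called ones, against 0.296% of all genes called higher.

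**Figure D3:**
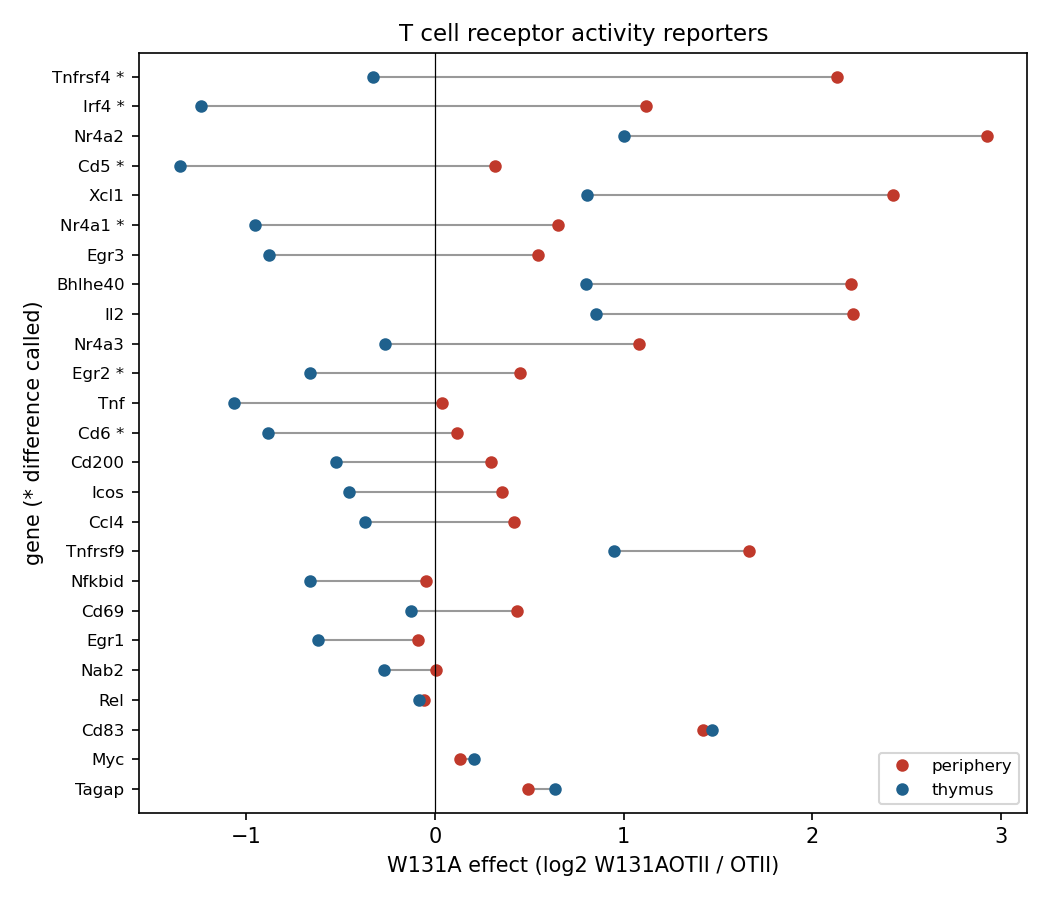
W131A effect in the periphery and in the thymus (log2 W131AOTII over OTII, horizontal axis) for the 25 receptor activity reporters, ordered by the difference between the 2, with an asterisk on the 6 genes whose difference was called. The peripheral point lies to the right of the thymic one for 22 of the 25, by 2.46 for Tnfrsf4 down to 0.03 for Rel.

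The 22 genes that rose with W131A in the periphery without a called thymic change included receptors, signalling regulators and genes of regulatory T cells. Ccr8, a chemokine receptor of regulatory and skin-homing T cells, was at 4.14, 7.97 and 5.54 CPM in peripheral W131AOTII against 1.27, 0.889 and 1.22 CPM in peripheral OTII libraries. In thymic libraries it was at 57.6, 29.0 and 50.2 CPM in W131AOTII against 63.2, 76.0 and 55.7 CPM in OTII cells. It was thus far more abundant in the thymus in both genotypes, and the groups separated in the periphery only. Its difference was 2.89 (SE 0.38, adjusted p = 0.00087). Gadd45g, a stress-induced regulator of MAP kinase signalling, was at 17.0, 22.2 and 23.1 CPM in peripheral W131AOTII against 4.34, 5.27 and 4.23 CPM in peripheral OTII libraries, and at 5.68, 2.90 and 3.08 CPM in thymic W131AOTII against 5.19, 6.29 and 6.33 CPM in thymic OTII libraries. The peripheral W131AOTII libraries stood above all others, with a difference of 2.79 (SE 0.37, adjusted p = 0.00087).

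Ncmap, a gene of a myelin-associated membrane protein, was at 9.58, 17.0 and 9.17 CPM in peripheral W131AOTII against 1.94, 1.98 and 2.15 CPM in peripheral OTII libraries, and at 3.63, 2.18 and 1.86 CPM in thymic W131AOTII against 5.10, 4.19 and 4.26 CPM in thymic OTII libraries. Peripheral W131AOTII replicate 2 was the highest of all. The Ncmap difference of 3.37 (SE 0.41, adjusted p = 0.00083) ranged from 3.06 to 3.70 in the fits without 1 library. Ncmap overlaps Gm12991, so part of its reads may belong to that gene. Itih5, an extracellular matrix protein gene, had a difference of 2.25 (SE 0.32, adjusted p = 0.0014), with 13.9 to 16.2 CPM in peripheral W131AOTII against 4.01 to 5.88 CPM in peripheral OTII libraries and 11.9 to 15.6 CPM in thymic W131AOTII against 20.8 to 24.4 CPM in thymic OTII libraries. Its thymic groups did not overlap, but the thymic effect of -0.72 was not called (adjusted p = 0.098). Gpr15, a homing receptor for the large intestine, rose in the periphery by 3.28 and had a thymic effect of 0.74. Its difference of 2.54 (SE 0.55, adjusted p = 0.049) remained called only without thymic OTII replicate 3 or thymic W131AOTII replicate 1, with an adjusted p of up to 0.16.

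Among 19 genes of regulatory T cells, the difference was called for 4, against 0.296% of all genes called higher, and all 4 were more positive in the periphery: Gpr83, Ikzf4, Nrp1 and Ctla4. Their number was 2 without peripheral OTII replicate 3 and 8 without thymic W131AOTII replicate 1. The median difference of the list was 1.11 and 18 of the 19 were positive, against 7458 of all 15204 genes. Ikzf4, the regulatory T cell factor Eos, was at 25.7, 29.2 and 32.6 CPM in peripheral W131AOTII against 11.3, 13.3 and 15 CPM in peripheral OTII libraries, while all 6 thymic libraries lay between 21.3 and 25.2 CPM. Nrp1, a semaphorin receptor of thymus-derived regulatory cells, was at 45.2 to 53.0 CPM in peripheral W131AOTII against 18.6 to 21.5 CPM in peripheral OTII libraries, with 24.2 to 32.1 CPM in thymic W131AOTII against 24.1 to 25.8 CPM in thymic OTII libraries. For both genes, then, peripheral OTII cells were the low group, and W131A raised them to or above the thymic level. The differences were 1.21 (SE 0.21, adjusted p = 0.013) for Ikzf4 and 1.11 (SE 0.20, adjusted p = 0.017) for Nrp1. The Nrp1 call ended without peripheral OTII replicate 3 (adjusted p = 0.073).

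Ctla4, the inhibitory receptor that competes with CD28, was at 17.0, 17.0 and 15.5 CPM in peripheral W131AOTII against 6.47, 4.31 and 3.41 CPM in peripheral OTII libraries, and at 8.53, 9.56 and 5.99 CPM in thymic W131AOTII against 9.48, 6.75 and 7.07 CPM in thymic OTII libraries. Separation was seen in the periphery and overlap in the thymus. The difference was 1.75 (SE 0.34, adjusted p = 0.026) and ended without peripheral OTII replicate 2 or 3, peripheral W131AOTII replicate 1, thymic OTII replicate 1 or thymic W131AOTII replicate 3 (adjusted p up to 0.074). It was the 1 called gene of 17 inhibitory receptors, against 0.296% of all genes called higher. Pdcd1, which encodes PD-1, had 25.2 CPM as its middle value in peripheral W131AOTII against 9.51 CPM in peripheral OTII libraries, and scattered in the thymus at 314, 133 and 224 CPM in W131AOTII against 146, 242 and 115 CPM in OTII cells. Its difference of 1.06 (95% interval 0.15 to 1.97, adjusted p = 0.46) did not pass, nor in any fit without 1 library, but it was called by edgeR without a low-count filter.

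Several defining genes of regulatory and anergic cells had no called difference in edgeR. Foxp3, which encodes the transcription factor that defines regulatory T cells, was at 138, 161 and 148 CPM in peripheral W131AOTII against 28.5, 31.1 and 34.3 CPM in peripheral OTII libraries, and at 35.0, 22.5 and 18.5 CPM in thymic W131AOTII against 10.4, 10.3 and 12.0 CPM in thymic OTII libraries. It rose in both tissues, and the difference of 1.03 had a 95% interval of 0.44 to 1.62 (adjusted p = 0.15). It was called without thymic W131AOTII replicate 1 (adjusted p = 0.012), and also by DESeq2 (0.040), by limma voom (0.0060) and by edgeR without a low-count filter (0.0017). Nt5e, which encodes CD73, rose by 2.58 in the periphery and 2.56 in the thymus, with a difference of 0.02 (95% interval -0.84 to 0.87). Lrrc32, the surface carrier of latent TGF-beta, rose by 2.61 and 2.73, with a difference of -0.12 (95% interval -0.71 to 0.47). Izumo1r, folate receptor 4, had a difference of 1.2 (95% interval 0.48 to 1.92, adjusted p = 0.18), and it too was called without thymic W131AOTII replicate 1 (adjusted p = 0.0050), the library with 209.9 CPM beside 93.1 and 113 CPM in the other thymic W131AOTII libraries. Izumo1r was further called by DESeq2 (adjusted p = 0.049), by limma voom (0.0023), by edgeR without a low-count filter (1.4e-05) and with the replicate block plus GC and length offsets (0.014).

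Of 24 genes of late thymocyte maturation and egress 4 were called, against 0.296% of all genes called higher. Klf2 and Dapl1 fell in the thymus without a called peripheral change, Igfbp4 rose in the periphery without a called thymic change, and Ms4a4c did both. The median difference was 0.33 and 22 of the 24 were positive, against 7458 of 15204 genes. Of the 24, 16 had estimates above 0 in the periphery and below 0 in the thymus, against 3396 of all genes. The number called was 2 without peripheral OTII replicate 1 or 3, peripheral W131AOTII replicate 1 or 2 or thymic OTII replicate 1. Klf2 (ENSMUSG00000055148, chr8:72319033-72321656) was at 479, 581 and 545 CPM in peripheral W131AOTII against 386, 520.2 and 461 CPM in peripheral OTII libraries, and at 267, 166 and 237 CPM in thymic W131AOTII against 539, 427 and 481 CPM in thymic OTII libraries. Peripheral groups overlapped and thymic groups did not, with W131AOTII the low one. The difference was 1.34 (SE 0.22, adjusted p = 0.0068), from -1.11 in the thymus and 0.23 in the periphery. S1pr1, a target of KLF2, fell by 0.76 in the thymus and had an estimate of -0.02 in the periphery, and its difference of 0.74 (SE 0.17, adjusted p = 0.057) fell short of the threshold.

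Dapl1, a gene of naive T cells, was at 58.0, 54.2 and 48.1 CPM in peripheral W131AOTII against 24.8, 33.1 and 27.8 CPM in peripheral OTII libraries, and at 2.28, 0.833 and 1.17 CPM in thymic W131AOTII against 3.59, 3.41 and 3.47 CPM in thymic OTII libraries. Groups separated in both tissues in opposite order, but only the thymic effect was called, so it is not counted as reversed. Its difference was 2.21 (SE 0.45, adjusted p = 0.034), a call kept only without peripheral OTII replicate 2, peripheral W131AOTII replicate 3, thymic OTII replicate 2 or thymic W131AOTII replicate 1 (adjusted p otherwise up to 0.093). Igfbp4, an IGF-binding protein gene of naive and recently emigrated cells, was at 1291, 1639 and 1458 CPM in peripheral W131AOTII against 364, 645 and 671 CPM in peripheral OTII libraries, with overlapping thymic groups at 214 to 524 CPM in W131AOTII against 402 to 686 CPM in OTII libraries. The difference of 1.80 (SE 0.38, adjusted p = 0.043) was kept only without thymic OTII replicate 3 or thymic W131AOTII replicate 1 or 2 (adjusted p otherwise up to 0.10).

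**Figure D4:**
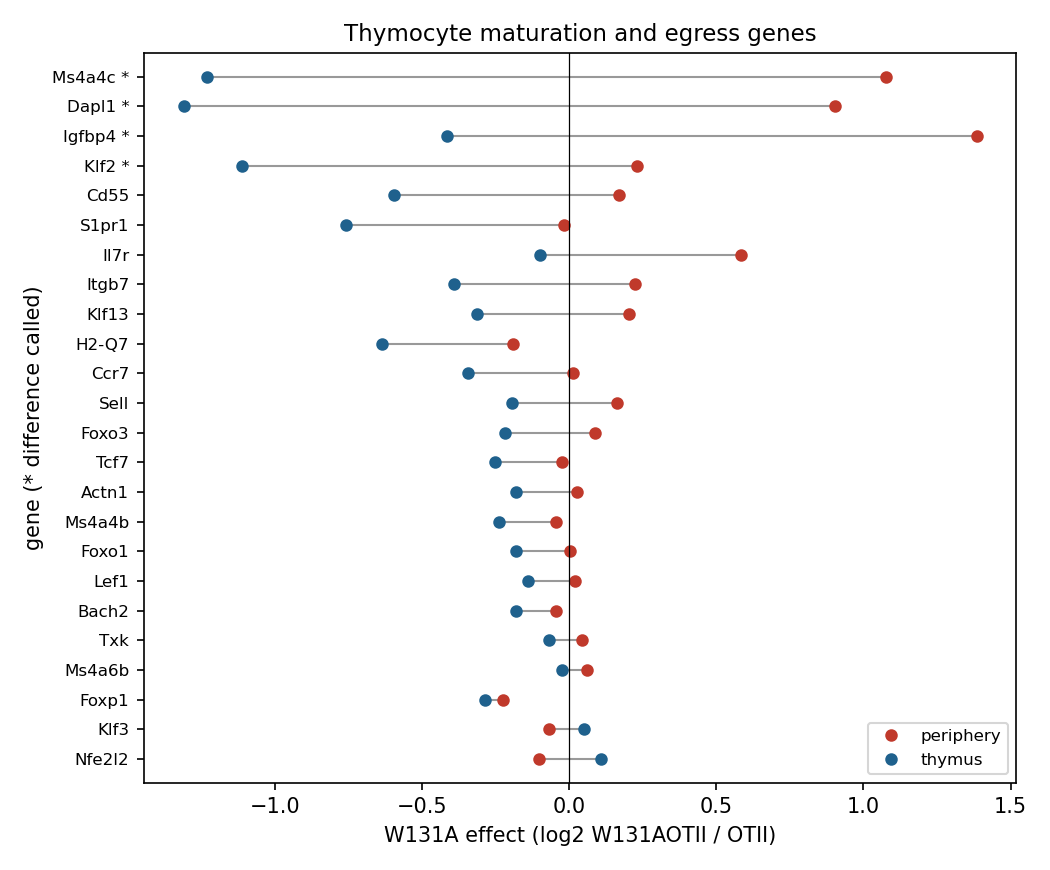
W131A effect in the periphery and in the thymus (log2 W131AOTII over OTII, horizontal axis) for 24 genes of thymocyte maturation and egress, with an asterisk on the 4 whose difference was called. Thymic points of Ms4a4c, Dapl1 and Klf2 lie beyond -1, whereas 22 of the 24 peripheral points lie to the right of their thymic partners.

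Ly6a and Vim, from a list of 27 effector and memory genes, followed the same course of a thymic fall without a called peripheral change. They were the called members of that list, against 0.296% of all genes called higher. Ly6a, the surface protein Sca-1, was at 1340.4, 1141 and 1495 CPM in peripheral W131AOTII against 919.8, 963 and 851 CPM in peripheral OTII libraries, and at 292, 237 and 238 CPM in thymic W131AOTII against 477, 335 and 434 CPM in thymic OTII libraries. Vim, which encodes the intermediate filament vimentin, was at 240.0, 286 and 262 CPM in peripheral W131AOTII against 149.6, 208 and 196 CPM in peripheral OTII libraries, and at 369.9, 234 and 313 CPM in thymic W131AOTII against 521, 489 and 478 CPM in thymic OTII libraries. W131AOTII was above OTII in the periphery and below it in the thymus for both, with no overlap. The peripheral effects of 0.54 and 0.51 had adjusted p-values of 0.077 and 0.13. The differences were 1.24 (SE 0.21, adjusted p = 0.0095) for Ly6a and 1.21 (SE 0.22, adjusted p = 0.016) for Vim.

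Bcl3, an atypical inhibitor of NF-kB that acts in the nucleus, rose in the periphery, with 165, 191 and 268 CPM in peripheral W131AOTII against 93.4, 109 and 99.7 CPM in peripheral OTII libraries. Thymic levels overlapped, at 37.0 to 58.5 CPM in W131AOTII against 45.8 to 55.4 CPM in OTII libraries. Its difference of 1.16 (SE 0.25, adjusted p = 0.048) stayed called only without peripheral W131AOTII replicate 1 or thymic W131AOTII replicate 1 (adjusted p otherwise up to 0.13). It was the 1 called gene of 24 NF-kB genes, against 0.296% of all genes called higher. Fam163b, a membrane protein gene, was called in both tissues with the same sign. It had 37 counts over the 3 peripheral W131AOTII libraries against 0 in peripheral OTII, and 756 counts in thymic W131AOTII against 268 in thymic OTII libraries. Against a floor of 3 counts over the peripheral OTII group, it was at least 10.98-fold higher in the periphery, and the difference of effects was at least 2.16 on the log2 scale. Its adjusted p was 0.043, kept only without thymic OTII replicate 2 or thymic W131AOTII replicate 1 (otherwise up to 0.14), and its peripheral level of at most 0.482 CPM lies far below the thymic one.

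In the other direction, 12 genes were raised by W131A in the thymus while no change was called in the periphery. In all 12, the thymic OTII group had the lowest mean of the 4 groups. Ppp3cc (ENSMUSG00000022092, chr14:70217865-70289471), a catalytic subunit of the calcium-dependent phosphatase calcineurin, was at 144, 122 and 123 CPM in peripheral W131AOTII against 101, 95.2 and 108 CPM in peripheral OTII libraries. In the thymus it was at 121, 199 and 188 CPM in W131AOTII against 53.6, 52.8 and 53.4 CPM in OTII libraries. The thymic OTII libraries were nearly identical and the lowest of all, and W131AOTII was above OTII in both tissues. The effect was 1.67 (SE 0.15) in the thymus and 0.35 (SE 0.14, adjusted p = 0.38) in the periphery, a difference of -1.31 (SE 0.21, adjusted p = 0.0036). Of 24 calcineurin, calcium and NFAT genes it was the 1 called, against 0.0855% of all genes called lower. The other catalytic subunits, Ppp3ca and Ppp3cb, had differences of 0.10 (SE 0.19) and 0.25 (SE 0.31).

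Tmie, known for its part in the hair cell transduction channel, was at 110.4, 124 and 158 CPM in peripheral W131AOTII against 138, 140.1 and 129 CPM in peripheral OTII libraries, and at 286, 259 and 295 CPM in thymic W131AOTII against 99.1, 95.8 and 117 CPM in thymic OTII libraries. Thymic W131AOTII stood above the other 9 libraries. Slc16a5, a monocarboxylate transporter gene, was at 428, 405 and 644 CPM in peripheral W131AOTII against 497, 547 and 566 CPM in peripheral OTII libraries, and at 359, 360.1 and 518 CPM in thymic W131AOTII against 141, 171 and 122 CPM in thymic OTII libraries. Sqor, the mitochondrial sulfide oxidase, was at 28.1, 23.9 and 32.1 CPM in peripheral W131AOTII against 30.8, 33.0 and 33.0 CPM in peripheral OTII libraries, and at 24.9, 27.2 and 32.1 CPM in thymic W131AOTII against 14.1, 11.9 and 9.89 CPM in thymic OTII libraries. In Slc16a5 and Sqor thymic OTII was the low group and the other 3 groups overlapped. The differences were -1.48 (SE 0.23) for Tmie, -1.63 (SE 0.25) for Slc16a5 and -1.44 (SE 0.22) for Sqor, each with an adjusted p of 0.0028. Tmie overlaps Als2cl, Slc16a5 overlaps Gm11695 and Ppp3cc overlaps 2 predicted genes, so part of their reads may belong to those.

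Adamts14, a procollagen peptidase gene, had a thymic effect of 1.73 beside 0.40 in the periphery, a difference of -1.33 (SE 0.24, adjusted p = 0.017). Its level was 27.0 to 28.7 CPM in thymic W131AOTII against 7.27 to 9.11 CPM in thymic OTII libraries. That call ended without peripheral OTII replicate 2 or 3, peripheral W131AOTII replicate 1 or 2, thymic OTII replicate 2 or thymic W131AOTII replicate 3 (adjusted p up to 0.079). Wnt5b, a secreted Wnt ligand, had a difference of -1.62 (SE 0.30, adjusted p = 0.018), which ended without peripheral OTII replicate 2 or 3, peripheral W131AOTII replicate 1 or 2 or thymic W131AOTII replicate 3 (adjusted p up to 0.074). Rflnb, an actin-associated regulator, rose in the thymus by 1.1, with 119.8 to 148 CPM in W131AOTII against 55.1 to 63.3 CPM in OTII libraries, and had a difference of -0.89 (SE 0.18, adjusted p = 0.027). The Rflnb call ended without peripheral OTII replicate 2 or 3, peripheral W131AOTII replicate 1 or 2, thymic OTII replicate 2 or 3 or thymic W131AOTII replicate 3 (adjusted p up to 0.12).

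The remaining called genes of this kind rested on more of the libraries. Art2b, an ADP-ribosyltransferase of the T cell surface, was at 101 to 164 CPM in thymic W131AOTII against 44.2 to 47.7 CPM in thymic OTII libraries, with a difference of -1.28 (SE 0.26, adjusted p = 0.041) that was kept only without peripheral W131AOTII replicate 3 or thymic W131AOTII replicate 1 or 2 (adjusted p otherwise up to 0.12). Abhd15, a lipid metabolism gene, had a difference of -1.07 (SE 0.21, adjusted p = 0.032), kept only without peripheral OTII replicate 1, peripheral W131AOTII replicate 3, thymic OTII replicate 2 or thymic W131AOTII replicate 1 (otherwise up to 0.13). Gprin3 had a difference of -1.66 (SE 0.35, adjusted p = 0.043), kept only without peripheral W131AOTII replicate 1, thymic OTII replicate 2 or thymic W131AOTII replicate 1 (otherwise up to 0.12). Eya2, a phosphatase and transcriptional coactivator, had a difference of -1.08 (SE 0.23, adjusted p = 0.049), with a thymic rise of 0.78 beside -0.30 in the periphery, and was kept only without thymic OTII replicate 2 or thymic W131AOTII replicate 2 (otherwise up to 0.12). The predicted gene Gm42646 had a difference of -1.69 (SE 0.36, adjusted p = 0.049), kept only without thymic OTII replicate 1 or thymic W131AOTII replicate 1 (otherwise up to 0.15).

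**Figure D5:**
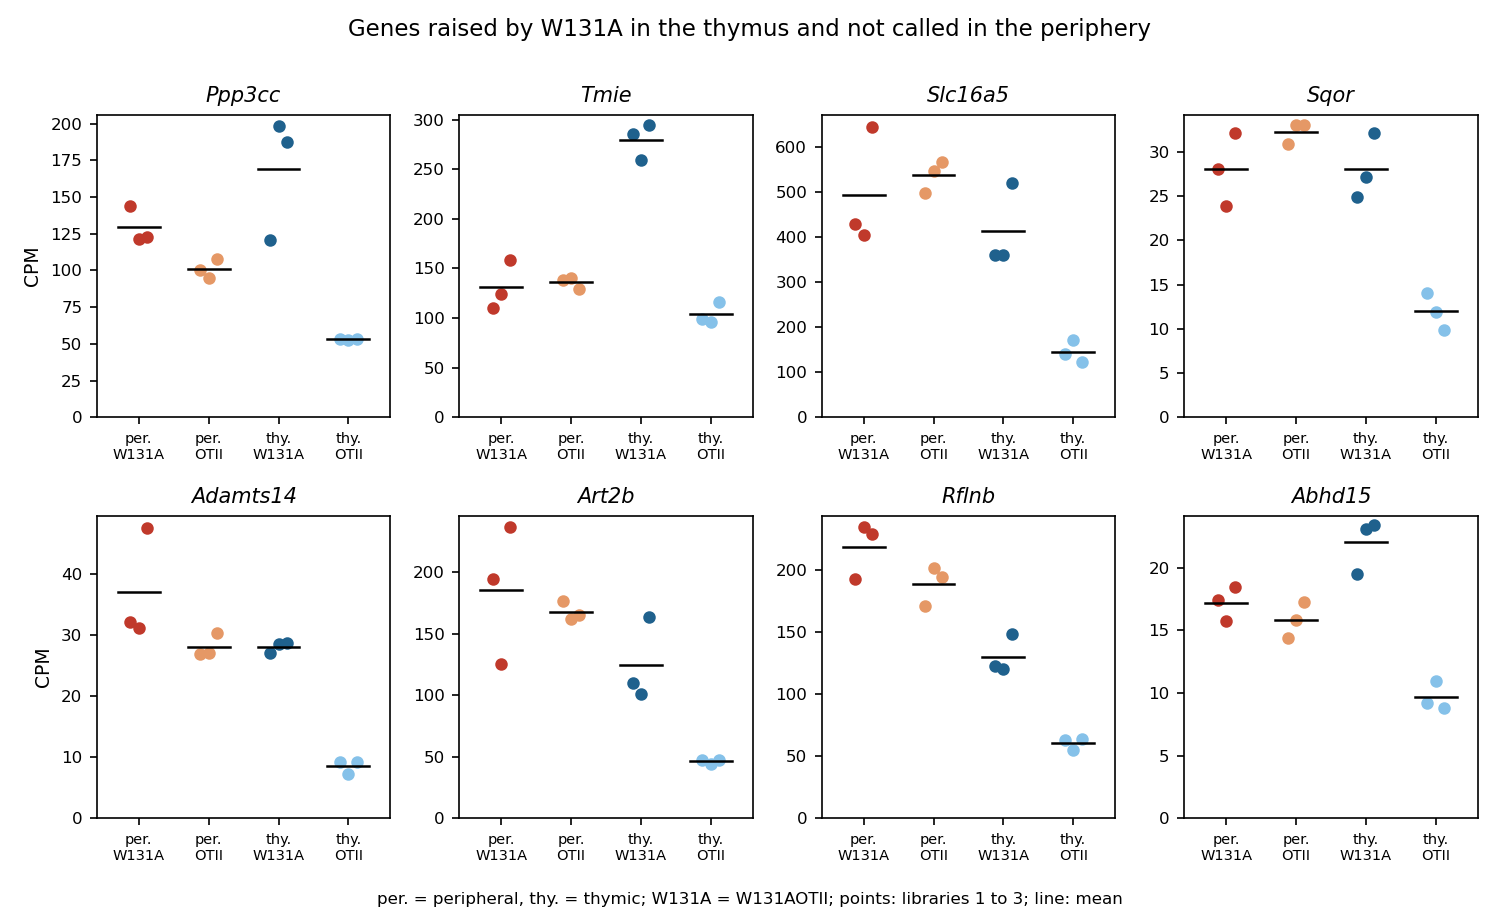
Level in CPM of 8 genes that W131A raised in the thymus without a called change in the periphery, one panel per gene, with a point per library (3 per group) and a line at the group mean, in the order peripheral W131AOTII, peripheral OTII, thymic W131AOTII, thymic OTII. Thymic OTII has the lowest mean in all 8 panels, as for Ppp3cc at 52.8 to 53.6 CPM against 121 to 199 CPM in thymic W131AOTII.

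Variable segments of the T cell receptor beta chain differed between the tissues as well. OT-II cells carry a rearranged transgenic beta chain, and reads of other segments come from other rearrangements or from unrearranged transcripts. Of 24 Trbv segments 5 were called, Trbv1, Trbv2, Trbv3, Trbv13-3 and Trbv19, all more positive in the periphery, against 0.296% of all genes called higher. The median difference over the 24 was 1.1 and 21 were positive, against 7458 of all 15204 genes. In the periphery 14 of the 24 rose, against 1.68% of all genes. The median effect over the 24 was 1.22 in the periphery and 0.02 in the thymus. Trbv19 was named after its values were seen. Trbv2 was at 57.0, 46.6 and 40.7 CPM in peripheral W131AOTII against 16.3, 13.5 and 12.4 CPM in peripheral OTII libraries, and at 30.4, 26.9 and 31.9 CPM in thymic W131AOTII against 23, 27.1 and 22.3 CPM in thymic OTII libraries. The peripheral groups were far apart and the thymic ones overlapped, with a difference of 1.47 (SE 0.28, adjusted p = 0.020). Differences of 1.57 (SE 0.30), 1.80 (SE 0.38) and 1.42 (SE 0.29) were measured for Trbv3, Trbv1 and Trbv13-3. These calls were fragile: 0 segments were called without peripheral OTII replicate 3 or peripheral W131AOTII replicate 1, and 1 or 2 without peripheral OTII replicate 1 or 2, peripheral W131AOTII replicate 2, thymic OTII replicate 1 or 2 or thymic W131AOTII replicate 2 or 3. When GC content and length were corrected for, 2 were called. Of 71 alpha chain segments 0 were called by edgeR, 4 by DESeq2 and 2 by limma voom, 10 had an unadjusted p under 0.05, and the median difference was 0.25. Of all 15204 genes DESeq2 called 210 and limma voom 556, and 1448 had an unadjusted p under 0.05.

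Several pathways held no called difference or a single one. Over all 15204 genes edgeR called 58, DESeq2 210 and limma voom 556, with 1448 at an unadjusted p under 0.05. The targeted kinase itself, Zap70, had a difference of 0.17 (95% interval -0.43 to 0.78), and the counts carry no allele information, so this does not check the genotype. Cblb, the E3 ligase gene studied elsewhere in the series, had a difference of -0.17 (95% interval -0.68 to 0.33). Of 17 anergy-linked ubiquitin ligases and lipid kinases edgeR called 0, DESeq2 1 and limma voom 2, with 3 at an unadjusted p under 0.05 and a median difference of -0.07. Of 24 proximal receptor signalling genes edgeR and DESeq2 called 0 and limma voom 4, with 3 at an unadjusted p under 0.05 and a median of -0.01. Of 33 cell cycle genes all 3 tools called 0, with 3 at an unadjusted p under 0.05 and a median of -0.04. Samhd1 was the 1 called of 36 type I interferon genes, against 0.296% of all genes called higher. That list had a median of 0.43 and 33 positive members, against 7458 of all 15204 genes. The 84 ribosomal protein genes had a median difference of 0.57, and 76 were positive, against the same 7458 of 15204. Their summed level was 7162 to 7862 CPM in peripheral W131AOTII against 6285 to 7458 CPM in peripheral OTII libraries, and 3688 to 5982 CPM in thymic W131AOTII against 5569 to 6048 CPM in thymic OTII libraries.

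Markers of other cells also moved with the contrast. Over all 15204 genes edgeR called 58, DESeq2 210 and limma voom 556, 1448 had an unadjusted p under 0.05, and 7458 had a positive difference. Of the 22 B cell markers edgeR, DESeq2 and limma voom called 0 in the difference, and 7 had an unadjusted p under 0.05. Their summed level in peripheral W131AOTII was above that of all peripheral OTII libraries in replicate 2 only. Of 15 NK and innate-like markers tested edgeR and limma voom called 0 and DESeq2 1, and 8 had an unadjusted p under 0.05. The summed NK and innate-like level was 188 to 449 CPM in peripheral W131AOTII against 90.8 to 105 CPM in peripheral OTII libraries, and 440 to 1153 CPM in thymic W131AOTII against 363 to 926 CPM in thymic OTII libraries. Myeloid markers summed to 275 to 382 CPM in peripheral W131AOTII against 209 to 235 CPM in peripheral OTII libraries, and to 122 to 287 CPM in thymic W131AOTII against 196 to 213 CPM in thymic OTII libraries. CD8 T cell markers summed to 568 to 602 CPM in peripheral W131AOTII against 327 to 393 CPM in peripheral OTII libraries, without overlap, and to 488 to 924 CPM in thymic W131AOTII against 401 to 784 CPM in thymic OTII libraries. Erythroid and platelet markers summed to 4.13 to 33.7 CPM in thymic W131AOTII, highest in replicate 3, against 0.791 to 1.24 CPM in thymic OTII libraries, and 4 of the 7 tested rose in the thymus, against 1.73% of all genes. In the periphery they summed to 0.836 to 2.24 CPM in W131AOTII against 0.479 to 0.825 CPM in OTII libraries. The median difference was 1.18 over the B cell markers and 1.25 with the 1 member that had a group at 0 set to a floor of 3 counts, 0.60 over 20 myeloid markers (16 positive) and 0.25 over 10 CD8 markers (6 positive). Erythroid and platelet markers went the other way, with a median of -2.01 over 7 (2 positive) and of -3.15 with the floor. With the floor, 14 of the 15 NK and innate-like markers were positive at an unchanged median of 1.62. Of 61 immunoglobulin segments 43 were positive, against 7458 of all 15204 genes. The part of these cells in the differences was not tested. Without peripheral W131AOTII replicate 2, the library richest in B cell transcript, 30 of the 58 genes kept their call. The 28 that lost it included Egr2, Tnfrsf25, Dapl1, Trbv1 and Trbv3. In that fit the differences of Gpr83, Irf4, Nr4a1 and Nacc2 were 2.31, 2.22, 1.56 and 1.94. These genes were among those that kept their call whichever library was left out.

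The peripheral libraries without Cbl-b, which share no library with the 4 groups, gave a further W131A effect for the same genes: Cbl-b-/-W131AOTII against Cbl-b-/- OTII, 3 libraries each, with 122 genes higher (0.802%) and 165 lower (1.09%). Of the 45 genes with a more positive peripheral effect, 31 had an estimate above 0 there, against 47.6% of all genes, and 14 were called higher. All 14 were among the 30 that had risen in the periphery, of which 24 had an estimate above 0. Those 30 were picked by a peripheral rise, so their values here concern the peripheral effect and not the difference between the tissues. Gpr83 was at 49.3, 56.1 and 50.3 CPM in Cbl-b-/-W131AOTII against 23.6, 20.5 and 25.1 CPM in Cbl-b-/- OTII libraries, an effect of 1.17 (adjusted p = 3.5e-05). Nrp1 (1.32), Ikzf4 (1.18), Itih5 (1.63) and Nr4a1 (0.72) also rose, whereas Irf4 (0.49), Tnfrsf4 (0.58), Ccr8 (-0.34), Gadd45g (0.11) and Nacc2 (-0.13) did not pass. Among the 45 genes, 3 were called lower without Cbl-b: Ms4a4c (-1.02), Ly6a (-1.16) and Il18bp (-1.15), the last named after its values were seen. Ly6a was at 805, 804 and 807 CPM in Cbl-b-/-W131AOTII against 1775, 2134 and 1490.1 CPM in Cbl-b-/- OTII libraries, so its groups stood in the order opposite to that in cells with Cbl-b. Of the 13 genes with the more positive effect in the thymus, 1 rose without Cbl-b, Ppp3cc (0.63, adjusted p = 0.027). Whether these effects differ from those in cells with Cbl-b was not tested here.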

How the data were processed

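RNA of 18 libraries in 6 groups of 3 was sequenced as single-end reads. The deposited table holds the authors' raw counts for 55536 gene identifiers. STAR 2.7.2, GRCm38 and DESeq2 are named in the submitters' processing notes, while for the counting step, the annotation release and the strand setting the sources used here give nothing. All identifiers matched GENCODE M21, which gave names and coordinates.

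Counts were tested with edgeR 4.0.16 in R 4.3.3 (quasi-likelihood, robust, TMM factors, filterByExpr). The fit held 6 group means over all 18 libraries, with 12 residual degrees of freedom, and kept 15204 genes. The tested value was the W131A effect in the periphery minus that in the thymus, at a Benjamini-Hochberg adjusted p of 0.05. The same fit gave the single effects. The fit was tested on simulated data, with known differences in genes averaging at least 5 CPM over the groups. It called 42% and 34% of differences of 1 and -1 on the log2 scale, and 96% and 94% of those of 2 and -2. Of 140 calls 7 were false. A gene that was not called may thus still differ by about 1 on the log2 scale.

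Members and gene lists were chosen with earlier results of these data known. Genes were named by rule: the 12 largest differences in each direction with at least 5 CPM in a group, receptor segments left out, the reversed genes, up to 4 called genes of each list and 13 fixed genes. Alternatives were RLE factors, library size alone, DESeq2 1.42.0, limma 3.58.1 voom with quality weights, no and a stricter low-count filter, the 12 libraries alone, a replicate block, GC and length offsets, and each library left out. Depth was 20001233 to 36218772 counts per library compared. Promoters came from RefSeq, GRCm38.p6.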

Additional observations from a re-analysis of the deposited data

Results flagged for a closer look

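For 42 named genes the W131A effect differed between the tissues by a test of the difference itself. The values are the log2 effect in the periphery minus that in the thymus. Among the genes raised in the periphery and lowered in the thymus they were Gpr83 2.33, Irf4 2.36, Nacc2 1.87, Samhd1 1.17, Nr4a1 1.61, Gm13546 2.34 and Ms4a4c 2.31. Where the gene rose in the periphery without a called thymic change, they were Ncmap 3.37, Ccr8 2.89, Tnfrsf4 2.46, Gadd45g 2.79, Itih5 2.25, Ikzf4 1.21, Nrp1 1.11, Trbv2 1.47, Trbv3 1.57, Ctla4 1.75, Trbv13-3 1.42, Trbv1 1.80, Igfbp4 1.80, Bcl3 1.16 and Gpr15 2.54. Where it fell in the thymus without a called peripheral change, they were Cd5 1.67, Klf2 1.34, Ly6a 1.24, Vim 1.21, Egr2 1.11, Dapl1 2.21 and Tnfrsf25 1.52. Where it rose in the thymus without a called peripheral change, they were Sqor -1.44, Slc16a5 -1.63, Tmie -1.48, Ppp3cc -1.31, Adamts14 -1.33, Wnt5b -1.62, Rflnb -0.89, Abhd15 -1.07, Art2b -1.28, Gprin3 -1.66, Gm42646 -1.69 and Eya2 -1.08. Fam163b, called in both tissues, had a fitted value of 5.15, which depends on the prior count because its peripheral OTII libraries were at 0.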

How the results depend on the processing

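All 58 differences kept their sign under every alternative that tested them, and 23 kept their call in all of them. The 58 calls (45 higher, 13 lower, 7 reversed) stood beside 293 in the periphery and 421 in the thymus. DESeq2 gave 210 (146 higher, 64 lower, 11 reversed), with 478 and 789 single effects. Limma voom gave 556 (309 higher, 247 lower, 24 reversed), with 641 and 2222. Without a low-count filter there were 365 (294 higher, 71 lower, 32 reversed), with 772 and 821. GC content and length offsets gave 113 (80 higher, 33 lower, 11 reversed), with 696 thymic calls. The 12 libraries alone gave 48 calls with 7 lower, and 40 of the 48 were among the 58. Differences not called in that edgeR fit included those of Egr2 (adjusted p = 0.051), Ctla4 (0.062), Gpr15 (0.077), Bcl3 (0.077), Art2b (0.092), Gprin3 (0.094) and Igfbp4 (0.10). Higher differences made up 55.6% of the voom calls, against 77.6% in edgeR. The causes were not tested.

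Leaving out 1 library gave 23 to 1.3e+02 calls (19 to 90 higher and 4 to 41 lower, both highest without thymic W131AOTII replicate 1), 1 to 12 reversed genes, 147 to 360 peripheral and 177 to 532 thymic single effects. Lower calls numbered 8 without thymic OTII replicate 3. The planned removal of libraries with a B cell or myeloid marker sum over 3 times their group's median removed none, and peripheral W131AOTII replicate 2, with the highest B cell sum, is covered by leaving it out alone (32 calls).

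The replicate block, set by number within each tissue, gave 54 calls, 45 of them among the 58, and with GC content and length offsets 112 (76 higher, 36 lower, 13 reversed). Within each tissue, same-numbered W131AOTII and OTII libraries did not deviate together (r of 0.15, 0.03 and -0.00 in the periphery and -0.12, -0.30 and -0.07 in the thymus). Of the 12 libraries, 3 correlated best with their own number. Peripheral and thymic libraries of the same genotype were neither compared nor blocked by number, so whether these share animals was not tested. Counts were too few to bound Tgm1, with 3 and 23 summed counts in peripheral W131AOTII and OTII and 15 and 0 in thymic ones.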
